A study of Mus musculus with 9 samples.

Results

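The loci of 36 genes of fibroblast growth factor (FGF) signalling were examined in ATAC-seq peak lists from 9 mouse libraries. ATAC-seq inserts sequencing adapters into open DNA with a transposase, and a peak is an interval where insertions pile up. The genes were taken by name from the mm9 annotation, out of 22232 protein-coding genes: 15 secreted ligands, 3 hormone-like ligands, 4 intracellular FGFs, 4 receptors, 6 feedback inhibitors, the feedback modulator Flrt3 and 3 ETS transcription factor genes. The window of a gene was its body with 20 kb on each side, and a peak was counted where its midpoint lay in the window. A promoter peak lay within 1 kb of a transcription start site (TSS) of the gene, and a promoter or region is called open where it holds a peak.

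Each group held 3 libraries of GFP-positive cells sorted from the pharyngeal region of pooled Swiss Webster embryos at E9.5, all carrying Rosa26-GFPflox/+. The Tbx1-Cre Ctrl group (Tbx1Cre) carried Cre as a knock-in at 1 Tbx1 allele, so that these controls had 1 intact Tbx1 allele. The Tbx1-Cre cKO group (Tbx1Cre/flox) had a floxed second allele, which the same Cre deletes. The Mesp1-Cre Ctrl group (Mesp1Cre) marked the early mesoderm and its descendants, and its genotype names no Tbx1 allele. Tbx1-Cre also marks pharyngeal endoderm and ectoderm. The labels give the dissected tissue as pharyngeal apparatus and heart for Mesp1-Cre Ctrl and add the back for both Tbx1-Cre groups, while the study's methods describe tissue without the heart. The study gives the Mesp1-Cre controls of its single-cell data as Tbx1+/+. Lineage, dissection and the number of intact Tbx1 alleles cannot be told apart in the comparison of Tbx1-Cre Ctrl with Mesp1-Cre Ctrl.

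FGF ligands bind receptor tyrosine kinases at the cell surface and act largely through Ras and ERK. ERK signalling induces ETS factors of the Etv family and its own inhibitors, the Sprouty and Spred proteins and the ERK phosphatase Dusp6, so these genes serve as readouts of the pathway. In the pharyngeal apparatus, Fgf8 and Fgf10 signal between epithelium and mesoderm during growth of the arches and of the cardiac outflow tract.

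The lists held 43298 to 49490 peaks in Tbx1-Cre Ctrl, 19772 to 29251 in Tbx1-Cre cKO and 25485 to 42650 in Mesp1-Cre Ctrl. They give positions without read counts, so the depth behind a peak is unknown. Tbx1-Cre cKO replicate 3 had the shortest list. The Mesp1-Cre Ctrl replicate numbers used here are those of the labels. The study's own table lists this group's libraries in another order and holds no entry as long as the longest of these lists. The Tbx1 window itself held 5, 4 and 4 peaks in Tbx1-Cre Ctrl, 1, 0 and 0 in cKO and 2 in each Mesp1-Cre Ctrl library. In bulk sorted cells, fewer cells of an open type and less opening per cell cannot be told apart. No label ties a library to a litter, so p-values measure the spread between these libraries.

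Overlapping peaks of the 9 lists were merged into 73343 regions, of which 160 had their centre in an FGF window. Of these, 14 held a peak in all 3 Tbx1-Cre Ctrl libraries and in none of the cKO libraries. The central 200 bases of 4 of them are shown as the plus strand of mm9, with capitals marking a TEAD site (GGAATG) or an E-box (CAGCTG). The first pair, 12.3 kb upstream of Fgfr2 (chr7:137422524-137422723) and 14.3 kb from the Spry1 TSS on its downstream side (chr3:37553183-37553382), also held a peak in all 3 Mesp1-Cre Ctrl libraries. The second pair, in introns of Fgf7 (chr2:125890709-125890908) and Fgf6 (chr6:126969478-126969677), held none there. The Fgf7 stretch also lies in an intron of 4930525F21Rik.
Fgfr2: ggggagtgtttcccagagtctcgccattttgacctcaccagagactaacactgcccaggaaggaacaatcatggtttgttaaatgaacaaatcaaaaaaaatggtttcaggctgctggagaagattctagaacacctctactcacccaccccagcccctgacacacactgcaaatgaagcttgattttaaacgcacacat
Spry1: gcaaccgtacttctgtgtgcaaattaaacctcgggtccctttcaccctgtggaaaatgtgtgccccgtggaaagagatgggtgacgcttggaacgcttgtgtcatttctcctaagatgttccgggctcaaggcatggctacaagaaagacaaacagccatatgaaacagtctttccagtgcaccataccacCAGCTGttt
Fgf7: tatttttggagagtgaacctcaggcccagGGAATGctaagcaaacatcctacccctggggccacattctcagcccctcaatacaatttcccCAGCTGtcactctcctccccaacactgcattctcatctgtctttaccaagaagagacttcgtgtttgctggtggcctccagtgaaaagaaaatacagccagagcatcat
Fgf6: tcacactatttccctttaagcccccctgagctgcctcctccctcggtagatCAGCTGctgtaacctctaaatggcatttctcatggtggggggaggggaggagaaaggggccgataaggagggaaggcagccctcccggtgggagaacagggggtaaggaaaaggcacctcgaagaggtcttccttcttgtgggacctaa

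To determine which FGF genes have an open promoter at E9.5, promoter peaks were counted in each library. The feedback genes and ETS factor genes were open throughout: all 10 of Spry1, Spry2, Spry4, Spred1, Spred2, Dusp6, Flrt3, Etv1, Etv4 and Etv5 held a promoter peak in 9 of 9 libraries, cKO included. Among the receptors, Fgfr1 and Fgfr2 held one in 9 libraries, Fgfr3 in 8 and Fgfr4 in 7. Of the 18 secreted and hormone-like ligands, 3 held one in all 9, namely Fgf10, Fgf20 and Fgf23. The upstream TSS of Fgf20 lies within 1 kb of that of Efha2, and the Fgf20 region open in all 9 libraries lies in an exon of Efha2. Likewise, 9630014M24Rik has a TSS within 1 kb of that of Spry4. The Spry4 region open in all 9 libraries has its centre in an untranslated part of 9630014M24Rik. Over all 22232 protein-coding genes, 48.68% had a promoter peak in all 9 libraries and 34.12% in none.

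No promoter peak was found in any library at Fgf4, Fgf6, Fgf8, Fgf17 or Fgf21. Fgf4, a ligand of the early embryo, had no peak in its whole window. The remaining 10 ligands had promoter peaks in part of the libraries, from 1 for Fgf16 to 8 for Fgf18. Fgf7, a ligand that mesenchyme sends to epithelium, had a promoter peak in 3 of 3 Tbx1-Cre Ctrl libraries and in none of the others. Fgf3 had it in 2 Tbx1-Cre Ctrl, 0 cKO and 3 Mesp1-Cre Ctrl libraries. Fgf9, which signals from epithelium to mesenchyme in several organs, had it in 2, 0 and 2. The intracellular FGFs, which are not secreted and bind voltage-gated sodium channels, ranged from 5 libraries at Fgf12 to 9 at Fgf13 and Fgf14.

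CpG-rich promoters are as a class open in many cell types, so the promoters were also sorted by base composition. For each gene, the annotated TSS with the highest CpG observed to expected ratio in the surrounding 1000 bases was used. A promoter was called CpG-rich where these bases had at least 55% GC and a ratio of at least 0.6. Of all 9392 CpG-rich promoters, 82.7% held a peak in all 9 libraries and 1.41% in none. Of the 22 CpG-rich FGF promoters, 11 (50%) held a peak in all 9, and Fgf4 and Fgf8 held none. The 9 between were Fgf2, Fgf3, Fgf5, Fgf15, Fgf16, Fgf18, Fgf12, Fgfr3 and Fgfr4. Of the 14 other FGF promoters, 6 (42.9%) were open in all 9 libraries and 3 (21.4%) in none, beside 23.8% and 58.1% over all genes of that kind.

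Fgf10 had a promoter open in all 9 libraries without being CpG-rich. The 200 bases upstream of its TSS (chr13:119503306-119503505, plus strand) hold 5 CpG sites at 60.0% GC. They are shown from mm9, with CpG in capitals, as the upstream sequence of a ligand open in every library.
Fgf10: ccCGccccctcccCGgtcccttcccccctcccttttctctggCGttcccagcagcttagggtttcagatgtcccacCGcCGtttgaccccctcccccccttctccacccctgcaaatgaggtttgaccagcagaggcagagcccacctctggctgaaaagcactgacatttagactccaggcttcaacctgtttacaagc

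To ask how loss of Tbx1 bears on the FGF loci, Tbx1-Cre Ctrl was compared with Tbx1-Cre cKO. The 36 windows together held 125, 113 and 115 peaks in Tbx1-Cre Ctrl and 81, 75 and 46 in cKO, and the groups did not overlap. Relative to the length of each list, they held 25.3, 26.1 and 24.5 peaks per 10000 listed in Tbx1-Cre Ctrl (mean 25.27 ± 0.8185, SD, n = 3) and 27.7, 31.2 and 23.3 in cKO (27.38 ± 3.974), which overlap. When each list was cut to its 19772 widest peaks, the length of the shortest list, the windows held 58, 53 and 51 peaks in Tbx1-Cre Ctrl and 59, 67 and 46 in cKO.

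**Figure D1:**
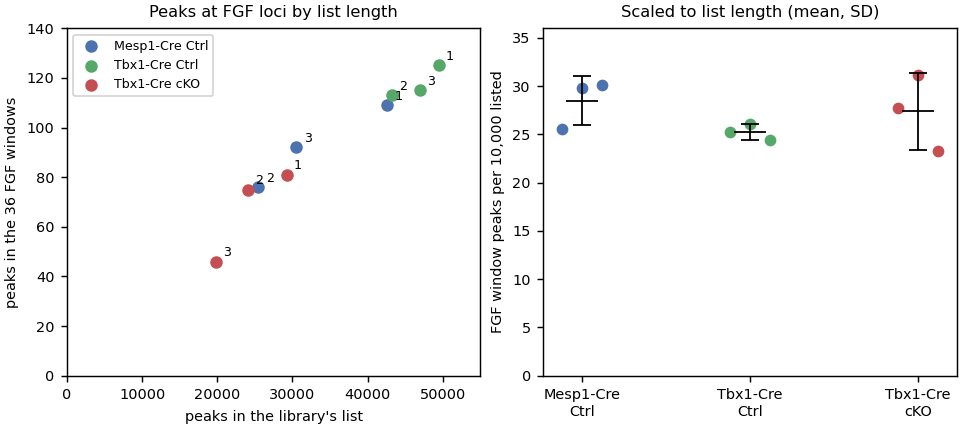
Left, peaks in the 36 FGF windows against peaks in the whole list for each library (numbers are replicates). Right, FGF window peaks per 10000 listed, with the mean and SD of 3 libraries as bars. On the left the cKO libraries, from 46 to 81 peaks, lie below the Tbx1-Cre Ctrl libraries, from 113 to 125, and overlap with the Mesp1-Cre Ctrl libraries, from 76 to 109. On the right they overlap with both control groups.

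Gene by gene, 8 of the 35 loci with a peak were called lower in cKO, meaning that the highest cKO library lay below the lowest Tbx1-Cre Ctrl library. These were Fgf1, Fgf6, Fgf7, Fgf10, Fgf20, Fgf13, Fgfr3 and Spred2. Over all 18679 genes with a peak in either group, 18.9% were called, so the share among the FGF loci, 22.86%, was near the background. No FGF locus was called in the other direction, beside 0.139% of all genes. Each of the 8 had p = 0.1 in the exact two-sided permutation test, the smallest that 20 relabellings of 3 against 3 libraries allow, and a Benjamini-Hochberg adjusted p of 0.525 over all genes tested. None could pass 0.05 in this design. The mean was lower in cKO at 32 loci, higher at 1 (Fgf2) and equal at 2 (Fgf21 and Spry4), with a median difference of -1 peak beside -0.67 over all genes. With equal numbers of widest peaks, Fgf1 alone kept its call, and 1.12% of all genes were called. A caller can also split an open region into several peaks. When the peaks of a library in 1 merged region were joined, an alternative chosen after seeing the data, 9 loci were lower in every cKO library, beside 20% of all genes. Fgf10, Fgf13 and Fgfr3 then lost their call, and Fgfr1, Fgfr2, Spry1 and Spred1 gained one.

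Among the ligands, Fgf1, which lacks a signal peptide and binds all 4 receptors, showed the largest fall. It held 9, 5 and 3 peaks in Tbx1-Cre Ctrl, 2, 2 and 0 in cKO and 6, 4 and 6 in Mesp1-Cre Ctrl. Its promoter region was 1035, 777 and 989 bp wide in Tbx1-Cre Ctrl, and in cKO replicate 2 alone held a peak, of 200 bp. A region in its intron, 12.2 kb from the nearest TSS, had peaks in all 6 control libraries and in no cKO library. The Fgf1 gene body shares this stretch with Arhgap26, so the peaks cannot be assigned to Fgf1 alone.

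Fgf7 held 4, 5 and 4 peaks in Tbx1-Cre Ctrl, 3, 1 and 1 in cKO and 3, 5 and 3 in Mesp1-Cre Ctrl. Its introns held peaks of different libraries at different places. These intronic regions also lay in an intron of 4930525F21Rik, so their peaks cannot be assigned to Fgf7 alone. The region at 30.1 kb, shown above, was 690, 672 and 803 bp wide in Tbx1-Cre Ctrl and without a peak in the 6 other libraries. The region at 4.7 kb had peaks of 303, 199 and 450 bp in Mesp1-Cre Ctrl and none in either Tbx1-Cre group. The region at 18.3 kb was open in all 9, at 911, 1019 and 1010 bp in Tbx1-Cre Ctrl against 493, 675 and 563 bp in cKO. Within this gene body, some regions were thus listed in the controls of a single Cre line.

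Fgf10, which marks the second heart field, held 3, 5 and 4 peaks in Tbx1-Cre Ctrl, 2, 2 and 2 in cKO and 2, 2 and 3 in Mesp1-Cre Ctrl. A pair of its regions was open in all 9 libraries: the promoter, and an intronic region at 44.5 kb. The intronic peak was 599, 718 and 731 bp wide in Tbx1-Cre Ctrl and 515, 541 and 433 bp in cKO, without overlap. The promoter peak was 811, 1092 and 1393 bp wide against 702, 921 and 590 bp, with overlap. Tbx1-Cre Ctrl replicate 1 held a second peak in the promoter region, and with it the summed width, 1096, 1092 and 1393 bp, did not overlap with cKO. That second promoter peak was the third peak counted in replicate 1, which was otherwise open at the same pair of regions as cKO. With the peaks of a region joined, Tbx1-Cre Ctrl held 2, 5 and 4 against 2 in each cKO library, and Fgf10 was no longer called (p = 0.4, exact permutation test). The Fgf10 regions that cKO lacked were open in Tbx1-Cre Ctrl replicates 2 and 3 only, at 17.6 and 77.7 kb, or in replicate 2 alone, at 91.5 kb.

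Fgf8 held 5, 2 and 3 peaks in Tbx1-Cre Ctrl, 3, 2 and 0 in cKO and 3, 1 and 3 in Mesp1-Cre Ctrl, and the groups overlapped (difference -1.67 peaks, p = 0.5, exact permutation test). A region 4.6 kb upstream (chr19:45821561-45822371) was open in 3 of 3 Mesp1-Cre Ctrl libraries, at 438, 426 and 676 bp. It was open in Tbx1-Cre Ctrl replicates 1 and 3, at 684 and 569 bp, and in no cKO library. The region at 6.5 kb upstream, within 1 kb of the TSS of the neighbouring gene Npm3, was open in 2 libraries of each group.

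The other ligands had fewer peaks. Fgf6, best known from skeletal muscle, held 1, 1 and 2 peaks in Tbx1-Cre Ctrl, 0 in each cKO library and 1, 1 and 0 in Mesp1-Cre Ctrl. Fgf20, a relative of Fgf9, held 3, 3 and 2 in Tbx1-Cre Ctrl, 1 in each cKO library and 2, 1 and 2 in Mesp1-Cre Ctrl. The Fgf20 peaks absent from cKO included those at its downstream TSS, of 352, 571 and 236 bp in Tbx1-Cre Ctrl, while the peak left in cKO was the one in Efha2. Fgf15, the mouse counterpart of human FGF19, held 4, 3 and 5 in Tbx1-Cre Ctrl, 2, 3 and 1 in cKO and 4, 3 and 3 in Mesp1-Cre Ctrl. Its region 7.4 kb upstream had peaks of 552, 239 and 558 bp in Tbx1-Cre Ctrl, none in cKO and 1 in Mesp1-Cre Ctrl. The windows of Fgf3, Fgf4 and Fgf15 adjoin and overlap, and no peak fell in 2 of them.

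**Figure D2:**
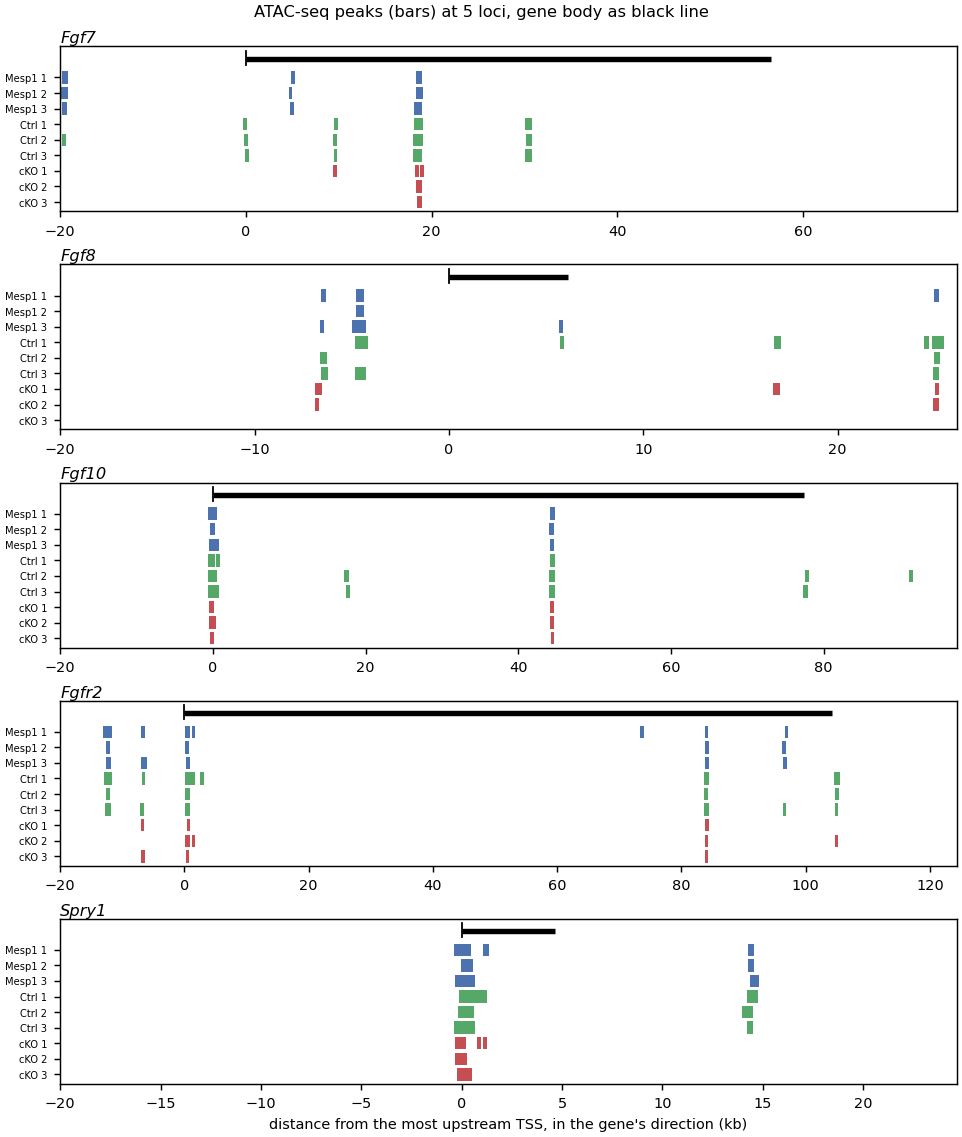
Peaks of each library (rows, coloured by group) at Fgf7, Fgf8, Fgf10, Fgfr2 and Spry1, by distance from the most upstream TSS in kb, with the gene body as a black line. Narrow peaks are drawn at a minimum width. Bars that cKO lacks stand at 30.1 kb in Fgf7, 12.3 kb upstream of Fgfr2 and 14.3 kb from the Spry1 TSS, while the Fgf10 promoter and its 44.5 kb intronic region have a bar in all 9 rows.

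All 4 receptors had a lower mean in cKO, and Fgfr3 was the one called. Fgfr3 held 5, 2 and 3 peaks in Tbx1-Cre Ctrl, 1, 1 and 0 in cKO and 3, 1 and 1 in Mesp1-Cre Ctrl. Fgfr1, the receptor of the early mesoderm, held 9, 8 and 5 against 5, 3 and 3, with 8, 3 and 5 in Mesp1-Cre Ctrl, and Tbx1-Cre Ctrl replicate 3 touched the cKO range. Without that replicate, or without cKO replicate 1, the Fgfr1 groups did not overlap. Fgfr2, the receptor of Fgf7 and Fgf10 in its epithelial splice form, held 7, 4 and 6 against 3, 5 and 3, with 8, 4 and 6 in Mesp1-Cre Ctrl. Fgfr4 held 3, 2 and 2 against 1, 2 and 1, with 3, 1 and 2 in Mesp1-Cre Ctrl.

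At Fgfr2, peaks other than promoter peaks numbered 6, 3 and 5 in Tbx1-Cre Ctrl and 2 in each cKO library, without overlap. Widths are those of the widest peak where a library had several in a region. The region 12.3 kb upstream was the widest of the 14 that cKO lacked, at 1300, 694 and 896 bp in Tbx1-Cre Ctrl and 692, 279 and 730 bp in Mesp1-Cre Ctrl, and the nearest cKO peak was 4806 bp away. The Fgfr2 promoter was open in all 9 libraries, and its widest peak was 364, 415 and 318 bp wide in cKO against 1487, 695 and 693 bp (p = 0.1, exact permutation test; adjusted p = 0.231 over all shared regions). Tbx1-Cre cKO replicate 2 had 3 peaks there, and with widths summed, cKO had 364, 872 and 318 bp, so that the groups overlapped. At the Fgfr1 promoter the widest peak was 543, 279 and 253 bp wide in cKO against 979, 567 and 566 bp, and the summed widths, 912, 279 and 253 bp against 979, 1048 and 566 bp, overlapped. Fgfr1 also had a region in its 3' untranslated part and a second one 1.3 kb from a TSS that were open in 3 Tbx1-Cre Ctrl, 0 cKO and 1 Mesp1-Cre Ctrl libraries.

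Among the feedback inhibitors, Spred2, which blocks Ras to ERK signalling, held 9, 6 and 9 peaks in Tbx1-Cre Ctrl, 5, 4 and 2 in cKO and 6, 5 and 4 in Mesp1-Cre Ctrl. Its relative Spred1 held 3, 4 and 7 against 2, 3 and 1, with 3, 1 and 2 in Mesp1-Cre Ctrl, and the groups overlapped. Peaks away from the promoter did not overlap at Spred1, at 2, 3 and 6 against 1, 1 and 0. A pair of adjoining regions 74.0 and 75.0 kb from the Spred1 TSS, beyond the end of the gene, was open in 3 Tbx1-Cre Ctrl libraries and held no peak in the 6 others. Spred2 had a like region 86.8 kb from its TSS, of 638, 492 and 578 bp, and another in an intron at 18.1 kb that was also open in 1 Mesp1-Cre Ctrl library.

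Spry1 held 2 peaks in each Tbx1-Cre Ctrl library against 3, 1 and 1 in cKO and 3, 2 and 2 in Mesp1-Cre Ctrl, and the groups overlapped (difference -0.33 peaks, p = 1, exact permutation test). Without cKO replicate 1 they did not overlap. Its peaks away from the promoter numbered 1 in every control library of both Cre lines and 0 in every cKO library. That peak, 14.3 kb from the TSS, was 577, 555 and 323 bp wide in Tbx1-Cre Ctrl and 299, 310 and 439 bp in Mesp1-Cre Ctrl. The Spry1 promoter, in turn, was covered by 3 separate peaks in cKO replicate 1 and by 1 wide peak in each Tbx1-Cre Ctrl library. With the peaks of a region joined, Spry1 held 2 in each Tbx1-Cre Ctrl library and 1 in each cKO library. Spry2, Spry4, Dusp6, Flrt3, Etv1, Etv4 and Etv5 overlapped between the groups in all peaks, promoter peaks and other peaks. At Etv1, which has 10 annotated starts, promoter peaks numbered 2 in each Tbx1-Cre Ctrl library and 4, 2 and 3 in cKO.

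**Figure D3:**
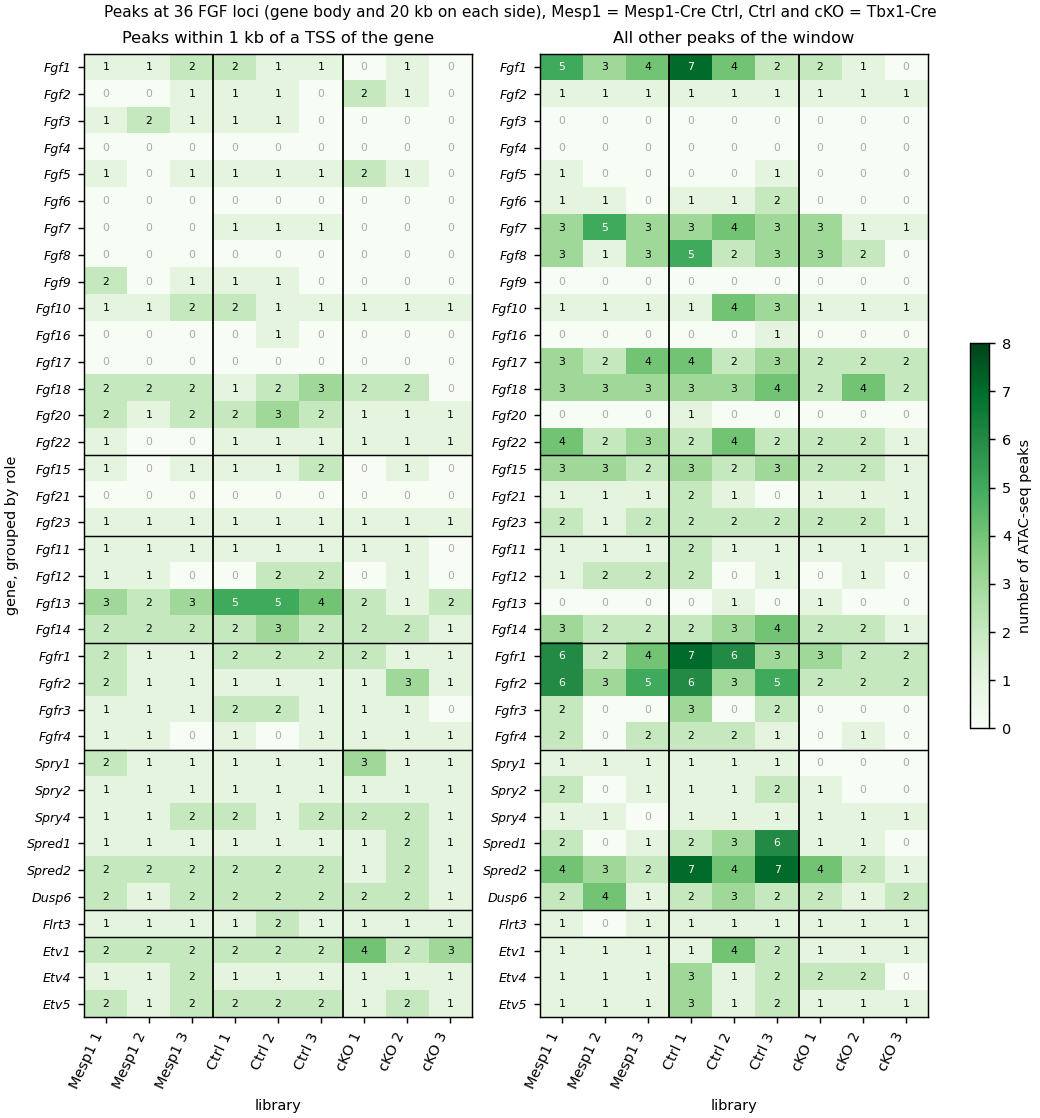
Number of ATAC-seq peaks at each of the 36 loci (rows, grouped by role) in each library (columns), with promoter peaks on the left and all other peaks of the window on the right. The feedback and ETS factor genes at the bottom left hold at least 1 promoter peak in every column, and the Fgf4, Fgf6, Fgf8, Fgf17 and Fgf21 rows are at 0 there.

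Counting promoter peaks apart, 3 of 31 loci were lower in every cKO library, beside 3.43% of all genes: Fgf7, Fgf20 and Fgf13. Fgf13, an intracellular FGF on the X chromosome with 5 annotated starts, held 5, 5 and 4 promoter peaks in Tbx1-Cre Ctrl, 2, 1 and 2 in cKO and 3, 2 and 3 in Mesp1-Cre Ctrl. Counting the other peaks, 4 of 33 loci were lower in every cKO library, beside 19.4% of all genes: Fgf6, Fgfr2, Spry1 and Spred1. With equal numbers of widest peaks these counts were 1 and 0, the latter beside 1.47% of all genes.

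Single regions were compared in the same way. Of the regions in FGF windows with a peak in 3 Tbx1-Cre Ctrl libraries, 3 of 39 near a TSS of any gene lacked a peak in all cKO libraries, beside 3.47% of all such regions. Of those away from a TSS it was 11 of 37, beside 27.2%. The reverse, a peak in 3 cKO and 0 Tbx1-Cre Ctrl libraries, was seen at 0 of 24 and 0 of 17, beside 0.029% and 0.143%. The 14 regions belonged to 10 genes, and their nearest cKO peak was at least 3354 bp away, with a median of 12040 bp. With equal numbers of widest peaks 3 regions had this pattern: the Fgf7 region at 30.1 kb, the Fgfr2 region 12.3 kb upstream and the Fgf1 promoter. The Fgf1 promoter is not among the 14. Its peak in cKO replicate 2, of 200 bp, was cut because the narrowest peak kept for that library was 237 bp.

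**Figure D4:**
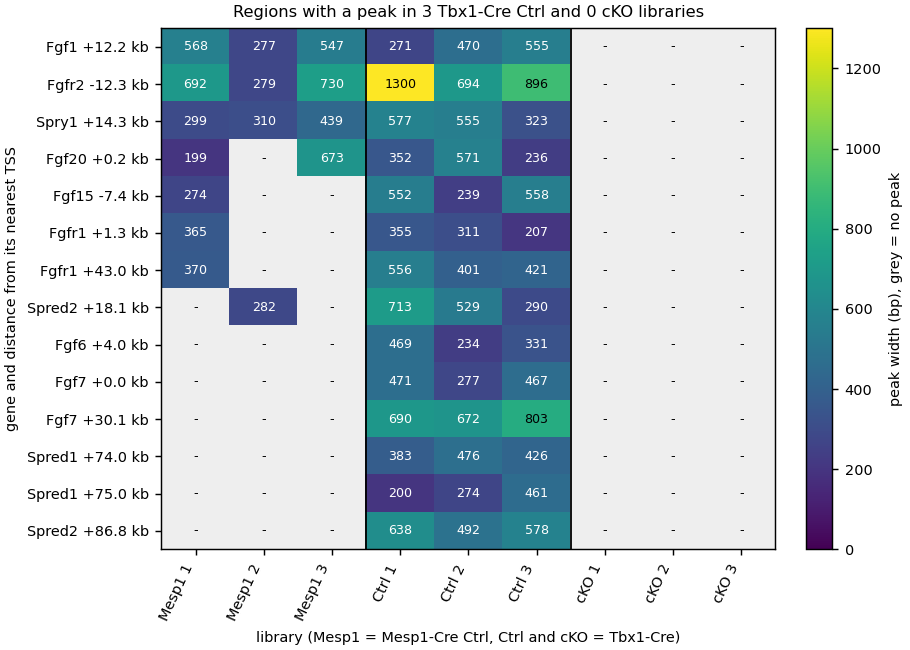
Width of the widest peak in bp (colour and number, grey without a peak) in each library at the 14 regions of FGF windows with a peak in 3 Tbx1-Cre Ctrl and 0 cKO libraries, by distance from the nearest TSS of the gene. The top 3 rows are also open in all 3 Mesp1-Cre Ctrl libraries, and the bottom 6 rows are open in Tbx1-Cre Ctrl alone.

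To ask which FGF regions are open in the Mesp1-Cre lineage, the control groups were compared. Of the 14 regions, 3 were open in all Mesp1-Cre Ctrl libraries (Fgf1, Fgfr2 and Spry1), 5 in 1 or 2 of them and 6 in none. In all, 1 of 39 regions near a TSS and 9 of 37 away from one were open in 3 Tbx1-Cre Ctrl and 0 Mesp1-Cre Ctrl libraries, beside 1.49% and 23.7% of all regions. The reverse held at 0 of 33 and at 2 of 27, beside 0.157% and 6.15%: the Fgf7 intron region at 4.7 kb and an intronic region of Spred2 at 56.9 kb. By number of peaks, Fgf13 was the 1 locus of 35 lower in every Mesp1-Cre Ctrl library, beside 8.32% of all genes, and 0 were higher, beside 0.43%. With the peaks of a region joined, Fgf13 held 2, 4 and 3 against 2 in each Mesp1-Cre Ctrl library and lost its call. Fgf7, Fgf18 and Spred2 were then called lower, beside 8.31% of all genes. With equal numbers of widest peaks 0 were lower, beside 1.55%, and 2 were higher, beside 2.99%. These were Fgf1, at 3, 4 and 2 peaks in Mesp1-Cre Ctrl against 1 in each Tbx1-Cre Ctrl library, and Fgf21, at 1 in each against 0. Without Mesp1-Cre Ctrl replicate 1, the longest list of its group, 4 loci were lower, beside 20.7%. Promoter peaks were lower at 2 of 31 loci (Fgf7 and Fgf13), beside 1.49%, and other peaks at 0 of 33, beside 8.73%.

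A core of FGF regions was open in every library. Of the 59 FGF regions near a TSS, 22 held a peak in all 9 libraries, beside 61.3% of all such regions, and of the 101 away from one, 13 did, beside 6.38%. Some of the 22 lay near a TSS of a neighbouring gene only, in the windows of Fgf2, Fgf11, Fgf15, Fgf18 and Fgf22. The one at Fgf20 lay in Efha2. The 13 lay in 11 windows, in introns of Fgf7, Fgf10, Fgf14, Fgf18, Fgfr1, Etv1 and Etv5, in coding exons of Fgf23 and Fgfr2, downstream of Dusp6, and in neighbouring genes at Fgf17. Fgfr1 had a pair of them, at 5.0 and 11.3 kb.

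Where all 6 Tbx1-Cre libraries had a peak, the width of the widest peak in each could be compared. Every cKO peak was narrower than every Tbx1-Cre Ctrl peak at 8 of 23 FGF regions near a TSS, beside 39.3% of all such regions, and at 9 of 16 away from one, beside 51.8%. The 8 near a TSS were the promoters of Fgfr1, Fgfr2, Spry1, Spry4, Spred1, Dusp6 and Fgf14 and, in the Fgf18 window, a region in Npm1. The Spry4 region is the one shared with 9630014M24Rik. With the widths of all peaks of a library in a region summed, an alternative chosen after seeing the data, it was 6 of 23, beside 41.4%, and 9 of 16, beside 52.8%. Near a TSS, the promoters of Fgfr1, Fgfr2, Spry1 and Spry4 then overlapped, those of Fgf10 and Flrt3 no longer did, and the other 4 were as before. At the Spred1 promoter the widest peak was 1281, 1525 and 1183 bp wide in Tbx1-Cre Ctrl and 1084, 566 and 882 bp in cKO. The median width over the 23 regions was 979, 850 and 846 bp in Tbx1-Cre Ctrl and 678, 667 and 590 bp in cKO, beside 876, 840 and 878 bp and 705, 706 and 610 bp over all 10233 such regions. The cKO lists were also the shorter ones, and the part of list length in this difference was not tested.

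A list of 44 further genes of the pathway, from heparan sulphate enzymes and co-receptors to Ras, ERK and other ETS factors, was counted in the same way. In cKO, 8 of the 43 with a peak were lower in every library (Fgfrl1, Mapk3, Dusp4, Flrt2, Sulf2, Ext1, Ets1 and Etv6) and 0 were higher, beside 18.9% and 0.139% of all genes. The median difference was -1 peak, beside -0.67 over all genes. Against Mesp1-Cre Ctrl, 4 were lower (Sulf1, Ext1, Ets1 and Etv6), beside 8.32% of all genes. Promoter peaks were present at 42 of the 44 in each Tbx1-Cre Ctrl library and at 37 to 41 in cKO.

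Peaks at cell type markers also differed between the groups. So did the lists, with means of 46600, 24355 and 32890 peaks in Tbx1-Cre Ctrl, cKO and Mesp1-Cre Ctrl. The windows of 12 epithelial markers held 32 to 42 peaks in Tbx1-Cre Ctrl, 12 to 23 in cKO and 14 to 29 in Mesp1-Cre Ctrl. The promoters of Epcam, Cdh1, Grhl2, Krt18, Foxa2, Nkx2-1 and Pax2 had no peak in any cKO library. In Tbx1-Cre Ctrl this held for Esrp1, Krt18 and Nkx2-1, and in Mesp1-Cre Ctrl for Esrp1, Foxa2 and Nkx2-1. The 10 mesoderm markers held 37 to 42, 16 to 28 and 24 to 36 peaks, in the same order of groups, and Gata4 was the one without a promoter peak in cKO. The 5 neural crest markers held 11 to 17, 4 to 11 and 6 to 10, with no promoter peak at Sox10 in any library. Foxd3 had none in cKO or Mesp1-Cre Ctrl, and Dlx5 none in cKO. The 6 blood and endothelial markers held 12 to 19, 6 to 7 and 9 to 22, with no promoter peak at Gata1, Pecam1 and Cdh5 in any library and none at Lyl1 in cKO. The part of list length in the marker counts was not tested, nor was that of cell type makeup in the FGF results.

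The central 200 bases of each region were searched on both strands for 8 short motifs. The T-box site AGGTGTGA was found in 0 of 59 FGF regions near a TSS and in 0 of 101 away from one, beside 0.276% and 0.708% of all regions. Its core GGTGTG, which the longer site contains, was found in 14 of the 101, beside 12.2% of all regions, and in 1 of the 11 that cKO lacked, at Fgfr1, beside 11.6% of all regions away from a TSS with this pattern. The E-box CAGCTG was found in 18 of the 101, beside 17.6%, and in 4 of those 11, among them the Fgf6, Fgf7 and Spry1 sequences shown above, beside 19.3% of all regions with this pattern. The ETS site CCGGAAG was found in 3 of the 101, beside 1.6%, and in 0 of the 11, beside 1.38%. The forkhead site TGTTTAC, the TEAD site GGAATG, the homeodomain site TAATTA and the letters AGATAA, which GATA factors bind, were found in 3, 12, 3 and 7 of the 101, beside 3.61%, 13.6%, 4.53% and 10.6% of all regions. Of the 59 near a TSS, the core GGTGTG was found in 5, beside 11.2%, the E-box in 12, beside 12.5%, and the ETS site in 3, beside 9.95%. The forkhead, TEAD, homeodomain and GATA letters were found in 4, 4, 0 and 0 of the 59, beside 1.41%, 6.83%, 0.944% and 2.81%. These shares were not tested.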

How the data were processed

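The deposited files are peak lists, 1 per library, giving chromosome, start and end without a score or signal. Per the study's methods, adapters were trimmed with cutadapt, reads aligned to mm9 with Bowtie2 2.3.4.3, non-unique, duplicate, mitochondrial and discordant pairs removed, and peaks called per library with MACS2 in a shifted, no-model mode. The authors pooled embryos for each library, and the lists were not pooled.

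Peaks were read in mm9 coordinates, in which 5 peaks of each list ran past a chromosome end, by up to 247 bp. Genes came from GENCODE vM1; readthrough transcripts were left out after one was seen to stretch Fgfr2, and 3 listed genes were matched by an older symbol. A locus was called where the groups did not overlap. Exact permutation tests were run over all genes and adjusted by Benjamini-Hochberg, with Python 3.11.15, numpy 2.4.6 and pandas 2.3.3. Counting was tested on simulated peaks. The genes, marker lists and motifs were chosen with earlier results of these data known. All 36 genes are accounted for; values per library are given for the receptors, Fgf8, Fgf10 and each gene called in cKO or holding a region open in 3 Tbx1-Cre Ctrl and 0 cKO libraries. Sequences come from the widest such region of a gene, outside exons. Alternatives were other windows, overlap in place of midpoint, equal numbers of widest peaks, another promoter definition, wider merging, joined peaks, summed widths, a replicate block and leaving out each library. A sequence withheld for evaluation is not reported here.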

Additional observations from a re-analysis of the deposited data

How the results depend on the processing

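The number of loci lower in every cKO library, 8 as reported, was 5 with 10 kb windows, 15 with 50 kb windows and 1 with equal numbers of widest peaks, when the share of all genes called was 15.6%, 27.3% and 1.12%. For peaks outside promoters, 4 as reported, it was 2, 9 and 0, beside 17.5%, 26.9% and 1.47% of all genes. For promoter peaks, 3 as reported, it was 1 with equal numbers. Against Mesp1-Cre Ctrl, 1 locus as reported became 3, 3 and 0 under the same settings, beside 7.14%, 10.4% and 1.55% of all genes. It became 2, beside 8.33%, with readthrough transcripts, an alternative chosen after seeing the data. The peaks of a library in 1 region were also joined, likewise chosen after seeing the data. The Mesp1-Cre Ctrl counts were then 3 by all peaks, beside 8.31% of all genes, 2 outside promoters, beside 8.63%, and 1 by promoter peaks. Peaks outside promoters, 0 as reported, gave 1 with 10 kb and 2 with 50 kb windows, and promoter peaks, 2 as reported, gave 0 with equal numbers. With equal numbers, regions open in all Tbx1-Cre Ctrl and no cKO libraries fell from 14 to 3, and those open in all Tbx1-Cre Ctrl and no Mesp1-Cre Ctrl libraries from 10 to 1. The mean at Fgf8, Fgfr1 and Spred1 then turned higher in cKO, by 0.33, 1.33 and 0.67 peaks. It also turned higher in cKO at Fgf14, Fgf17, Fgf18, Fgf22, Fgf23, Spry2, Dusp6, Flrt3, Etv1 and Etv4. This setting keeps only wide peaks of the long lists, and the cause of these changes was not tested.

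Whether replicate numbers pair libraries is unknown, and the study's table orders Mesp1-Cre Ctrl otherwise. In deviations over genes, Tbx1-Cre Ctrl correlated at 0.371, 0.032 and 0.235 with same-numbered cKO and 0.436, 0.423 and 0.046 with Mesp1-Cre Ctrl libraries. Other pairs, mostly negative, ran -0.376 to 0.352 and -0.451 to 0.28. With a replicate block, counting loci lower in all 3 same-numbered pairs, 10 loci were lower in cKO by all peaks, beside 28.7% of all genes. It was 8 by peaks outside promoters, beside 28.5%, and 4 by promoter peaks. Against Mesp1-Cre Ctrl it was 5 by all peaks, beside 16.6%, 1 outside promoters, beside 16.4%, and 2 by promoter peaks. The exact sign-flip test of 3 pairs cannot go below p = 0.25.

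With each library left out once, there were 8 to 14 loci lower in cKO, beside 20.3% to 30.8% of all genes. The 14 came without cKO replicate 2, beside 22.5%. Outside promoters there were 4 to 9, beside 20.7% to 31.1% (9 without Tbx1-Cre Ctrl replicate 2 or cKO replicate 1). In promoter peaks there were 3 to 7 (7 without cKO replicate 2, 6 without Tbx1-Cre Ctrl replicate 3). Outside promoters it was also 7 without Tbx1-Cre Ctrl replicate 1 or 3. Against Mesp1-Cre Ctrl the ranges were 2 to 6, 0 to 3 and 2 to 4. By all peaks, any library left out thus gave more than the 1 locus reported. The share of all genes ran from 8.82% to 20.7% by all peaks and from 9.25% to 21% outside promoters. In the same order, the highest counts came without Tbx1-Cre Ctrl replicate 1, without Tbx1-Cre Ctrl replicate 1 or 2, and without Mesp1-Cre Ctrl replicate 1. Fewer libraries make groups overlap less often by construction. Regions open in Tbx1-Cre Ctrl and not in cKO numbered 14 to 21. Those narrower in cKO numbered 19 to 25, beside 47.3% to 57.3% of all shared regions. Without cKO replicate 3, the library with the shortest list, the counts of 8, 4, 3 and 14 did not move. Promoters open in all libraries numbered 12 or 13 of 14 for receptors, feedback and ETS factor genes and 3 or 4 of 18 for ligands, and 11 and 3 with equal numbers of widest peaks. No depth is given in the lists, and a peak missing from a short list is not shown to be closed DNA.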
